A study of Mus musculus with 11 samples.

Results

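The 4 genes described here, 6330403K07Rik, 2210016F16Rik, Rps4l and Gm40466, are 4 of 55487 genes measured by RNA sequencing. Levels are in FPKM, the fragments assigned to a gene per kilobase of its length after scaling for the depth of the library. The genes were chosen by the S87L and wild-type FPKM values themselves: each is markedly lower in S87L libraries, both in spinal cord and in fetal fibroblasts, and they lie on different chromosomes. No numerical threshold was part of that choice. Their differences between genotypes are therefore given below as values, with no test. All 4 passed the filter on low values, a mean of at least 0.5 FPKM, in both tissues, and none is left out.

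RNA sequencing was done on spinal cord and on mouse fetal fibroblasts (MEF), a culture of connective tissue cells. There were 3 libraries of S87L spinal cord, 3 of wild-type spinal cord, 2 of S87L MEF and 3 of wild-type MEF. S87L mice were heterozygous for the Morc2a p.S87L allele, a change of serine to leucine, and wild-type mice carried no such allele. All were C57BL/6, and age, sex and the way the allele was made are not given in the labels used here. Separate animals or cultures are not named for the libraries of a group, so each p-value rests on a spread between libraries that may be no more than technical.

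MORC2A is a chromatin ATPase that works with the HUSH complex, which silences transposons and other inserted sequences through methylation of histone H3. Human MORC2 variants of the ATPase domain cause neuropathy. 6330403K07Rik is a protein-coding gene. 2210016F16Rik is protein-coding too, and its human counterpart, QNG1, acts in the salvage of queuosine, a modified base placed in the anticodon of some tRNAs. Rps4l is a retrocopy related to Rps4x, which encodes a protein of the small ribosomal subunit. Gm40466 is annotated as an unprocessed pseudogene, a copy of gene sequence made by duplication rather than through RNA.

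Coordinates are those of GRCm38. 6330403K07Rik (ENSMUSG00000018451) lies on the minus strand of chromosome 11 at chr11:71031941-71033513 and has 2 exons of 1494 bases in all. Morc2a is on the same chromosome, 67.3 Mb away. 2210016F16Rik (ENSMUSG00000021550) lies on the minus strand at chr13:58379817-58385225, with 3051 exonic bases in 4 blocks. Rps4l (ENSMUSG00000063171) is 1 exon of 943 bases at chr6:148354656-148355598 on the plus strand, inside the span of Tmtc1, which is read from the minus strand (chr6:148232430-148444389). Gm40466 (ENSMUSG00000110649) spans chr8:20001099-20008736 on the plus strand and has 2 exons of 422 bases in all.

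The Rps4l transcript was set beside that of Rps4x because reads of near copies can be assigned to the wrong gene. The 2 stretches of 150 bases begin at the start codon of each longest open reading frame, at base 55 of Rps4l-201 and base 95 of Rps4x-201, in the GENCODE M21 transcripts. Capitals mark the 31 positions at which they differ.
Rps4l: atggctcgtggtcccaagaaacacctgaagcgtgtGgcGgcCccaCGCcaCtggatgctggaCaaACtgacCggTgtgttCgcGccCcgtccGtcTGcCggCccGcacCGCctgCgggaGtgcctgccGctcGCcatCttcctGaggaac
Rps4x: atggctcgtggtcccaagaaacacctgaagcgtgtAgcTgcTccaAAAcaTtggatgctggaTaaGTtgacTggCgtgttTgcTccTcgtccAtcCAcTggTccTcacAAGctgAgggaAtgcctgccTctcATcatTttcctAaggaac
Over the whole alignment of 829 bases the 2 transcripts were 81.4% identical. The longest open reading frame of the Rps4l transcript runs for 262 codons and that of Rps4x for 263, although GENCODE M21 lists Rps4l as a transcribed processed pseudogene. Of the 913 distinct runs of 31 bases in Rps4l, 8 also occur in Rps4x, and 234 occur in Rps4l-ps, a second pseudogene. Apart from these and from Gm9616 and Gm15013, with 4 and 2 shared runs, no other annotated transcript held a run of 31 bases of Rps4l on its strand.

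Gm40466 was set beside Cdh11, which encodes the cell adhesion protein cadherin 11, since the first exon of the pseudogene matches coding sequence of that gene. Bases 2 to 222 of Gm40466-201 were 92.8% identical to bases 1045 to 1265 of Cdh11-201, whose coding sequence runs over bases 1038 to 3425. In the first 150 of these bases, capitals mark the 9 differences.
Gm40466: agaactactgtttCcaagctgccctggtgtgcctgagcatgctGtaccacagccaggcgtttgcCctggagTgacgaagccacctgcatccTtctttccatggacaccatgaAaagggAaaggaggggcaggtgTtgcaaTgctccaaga
Cdh11: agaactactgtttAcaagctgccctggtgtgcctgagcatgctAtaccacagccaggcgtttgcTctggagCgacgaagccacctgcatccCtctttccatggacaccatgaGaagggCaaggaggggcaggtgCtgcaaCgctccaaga
The second exon of Gm40466 matches other pseudogenes of chromosome 8, of which Gm21811 at chr8:20136502-20151665 recurs in the results. Bases 236 to 345 of Gm40466-201 and 746 to 855 of Gm21811-201 differ at the 5 positions in capitals.
Gm40466, the second exon: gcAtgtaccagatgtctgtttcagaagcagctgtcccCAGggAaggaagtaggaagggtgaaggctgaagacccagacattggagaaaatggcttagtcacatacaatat
Gm21811: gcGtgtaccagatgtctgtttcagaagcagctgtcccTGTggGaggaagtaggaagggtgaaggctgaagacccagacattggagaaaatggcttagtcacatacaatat
Runs of 31 bases of Gm40466 occurred in 7 annotated genes on the same strand, with 91.5% to 96.7% identity over the aligned parts. Those 7 were Gm3365, Cdh11, 2610005L07Rik, Gm21092, Gm21811, Gm6483 and 6820431F20Rik. 2210016F16Rik shared such runs with 24 genes, 4 on its own strand and 20 on the other, and at most 6 of its 3021 runs with any of the 4. 6330403K07Rik shared no such run with any other annotated transcript, on either strand.

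For the 2 protein-coding genes, RefSeq promoter windows of build GRCm38.p6 were available, from 250 bases before to 50 after the RefSeq start. Capitals mark the letters GGGCGG (a GC box) in 6330403K07Rik and CCGGAAG (the core of an ETS motif, on either strand) in 2210016F16Rik. The windows are chr11:71033568-71033867 and chr13:58385176-58385475, each on the minus strand. That of 6330403K07Rik lies wholly before the GENCODE start of the gene, at base 71033513. The 2210016F16Rik window spans the GENCODE start, at base 58385225, so the 2 windows are not placed alike.
6330403K07Rik: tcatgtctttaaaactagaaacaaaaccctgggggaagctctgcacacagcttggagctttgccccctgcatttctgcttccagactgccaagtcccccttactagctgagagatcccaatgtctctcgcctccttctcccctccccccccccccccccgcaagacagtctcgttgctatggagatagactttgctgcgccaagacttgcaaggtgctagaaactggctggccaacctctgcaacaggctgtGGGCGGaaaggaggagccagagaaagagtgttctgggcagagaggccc
2210016F16Rik: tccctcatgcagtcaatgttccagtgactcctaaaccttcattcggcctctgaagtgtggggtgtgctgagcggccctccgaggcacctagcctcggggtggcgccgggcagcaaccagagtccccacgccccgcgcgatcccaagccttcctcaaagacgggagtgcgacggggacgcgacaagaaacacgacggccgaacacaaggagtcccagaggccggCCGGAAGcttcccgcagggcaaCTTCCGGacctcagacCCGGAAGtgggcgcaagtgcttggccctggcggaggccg
The 2210016F16Rik window holds CCGGAAG 3 times, at bases -27 and 12 on its own strand and at -5 on the other, counted from the start. Of 32534 RefSeq promoters of the same length, 8.92% hold these letters. The 6330403K07Rik window holds GGGCGG at base 3 and CCAAT at -134, letters found in 35.9% and 37.4% of promoters. Neither window holds TGACGTCA, CACGTG or TATAAA on either strand, which occur in 1.80%, 7.17% and 13.6% of promoters, and the motifs searched do not overlap in these windows. The 2210016F16Rik window has 26 CpG and 65.7% G and C, and the 6330403K07Rik window 5 CpG and 56.3% G and C, against medians of 7 CpG and 53% over all promoters. So no motif of those searched was found in both windows.

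The libraries held 19.4 to 23.5 M assigned reads in S87L spinal cord, 15.4 to 19.0 M in wild-type spinal cord, 12.1 to 14.5 M in S87L MEF and 14.3 to 15.1 M in wild-type MEF, as worked out from the steps in the FPKM values. Summed over 20 neuronal and synaptic genes, FPKM was 3234 to 3335 in the cord libraries and 60.1 to 70.9 in the MEF libraries, and summed over 12 fibroblast genes it was 232 to 243 in cord and 5629 to 6177 in MEF, as the tissue labels have it. Morc2a itself, which the allele alters without removing its transcript, had 4.71, 4.93 and 4.95 FPKM in S87L cord against 5.62, 5.66 and 5.71 in wild-type cord, and 16.4 and 16.4 FPKM in S87L MEF against 18.5, 18.8 and 18.3 in wild-type MEF. The values fell by 0.20 and 0.17 on the log2(FPKM + 0.5) scale (limma adjusted p = 0.0269 in cord and 0.0421 in MEF), and the call was lost without any of 5 cord libraries or any MEF library. In both tissues it was also lost with median ratio scaling, with no filter and with a replicate block. Quantile normalization lost the cord call too. The total does not separate the alleles and so does not check the genotype.

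6330403K07Rik was by far the most abundant of the 4 genes in spinal cord, and the least affected there in proportion. It had 89.9, 92.1 and 85.7 FPKM in S87L cord, against 152, 138 and 143 FPKM in wild-type cord. In MEF it had 1.89 and 1.99 FPKM in S87L libraries, against 7.03, 6.34 and 7.30 FPKM in wild-type libraries. The S87L libraries lay below all wild-type libraries in each tissue, a separation seen in either direction for 35.1% of tested genes in cord and 45.8% in MEF. The S87L mean was 61.7% of the wild-type mean in cord (89.2 ± 3.27 against 145 ± 7.01 FPKM, SD, n = 3 each) and 28.2% in MEF (1.94 ± 0.0735 against 6.89 ± 0.493 FPKM, SD, n = 2 and 3). As S87L minus wild-type on a log2(FPKM + 0.5) scale, the differences were -0.69 in cord and -1.60 in MEF, so the difference in MEF was larger by 0.90. In bulk tissue or culture, fewer cells of a type and less RNA per cell cannot be told apart. The FPKM steps of this gene did not give whole reads with the exon length at hand, and its read counts are not given.

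2210016F16Rik had about the same level in S87L cord and S87L MEF, although the wild-type tissues lay apart. It had 2.81, 2.65 and 2.40 FPKM in S87L cord, against 4.91, 4.85 and 4.92 FPKM in wild-type cord. In MEF there were 2.73 and 2.54 FPKM in S87L libraries, against 9.29, 9.62 and 10.4 FPKM in wild-type libraries. The S87L values of cord and MEF overlapped, with means of 2.62 and 2.64 FPKM, whereas the wild-type values of cord and MEF did not. The S87L mean was 53.6% of wild-type in cord and 27.0% in MEF, and the log2 differences were -0.79 and -1.71. Behind these values stood 169, 184 and 137 reads in S87L cord against 271, 219 and 220 in wild-type cord, and 115 and 89 reads in S87L MEF against 387, 400 and 457 in wild-type MEF. Pooled over libraries, the reads gave 53.7% of wild-type in cord (95% exact interval 47.8% to 60.4%) and 27.0% in MEF (23.2% to 31.4%), intervals that cover counting error only. They are no test, since the same values chose the gene.

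Rps4l differed by similar proportions in the 2 tissues. It had 15.5, 15.5 and 13.5 FPKM in S87L cord, against 29.2, 23.9 and 25.9 FPKM in wild-type cord. In MEF it had 19.4 and 22.5 FPKM in S87L libraries, against 46.5, 44.3 and 41.8 FPKM in wild-type libraries. In each tissue the S87L libraries lay below every wild-type library, and the highest S87L MEF value lay below the lowest wild-type cord value. The S87L mean was 56.3% of wild-type in cord (14.8 ± 1.18 against 26.3 ± 2.67 FPKM, SD, n = 3 each) and 47.4% in MEF (20.9 ± 2.24 against 44.2 ± 2.37 FPKM, SD, n = 2 and 3). The log2 differences were -0.81 and -1.06. Reads numbered 288, 332 and 237 in S87L cord against 499, 334 and 357 in wild-type cord, and 252 and 244 in S87L MEF against 599, 570 and 566 in wild-type MEF.

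Gm40466 showed the largest proportional difference of the 4, on the fewest reads. It had 0.963, 0.417 and 0.381 FPKM in S87L cord, against 3.4, 3.68 and 3.4 FPKM in wild-type cord. In MEF it had 0.343 and 0.206 FPKM in S87L libraries, against 4.34, 3.48 and 4.62 FPKM in wild-type libraries. These are 8, 4 and 3 reads in S87L cord against 26, 23 and 21 in wild-type cord, and 2 and 1 reads in S87L MEF against 25, 20 and 28 in wild-type MEF. The S87L and wild-type libraries did not overlap in either tissue, and among the S87L cord libraries the first had more than double the FPKM of the others. Pooled reads gave 16.7% of wild-type in cord (95% exact interval 8.87% to 29.4%) and 6.77% in MEF (1.37% to 20.6%). Both intervals cover counting error only and are no test, since these values chose the gene. The log2(FPKM + 0.5) differences, -1.92 in cord and -2.58 in MEF, understate the change of a gene this low.

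**Figure D1:**
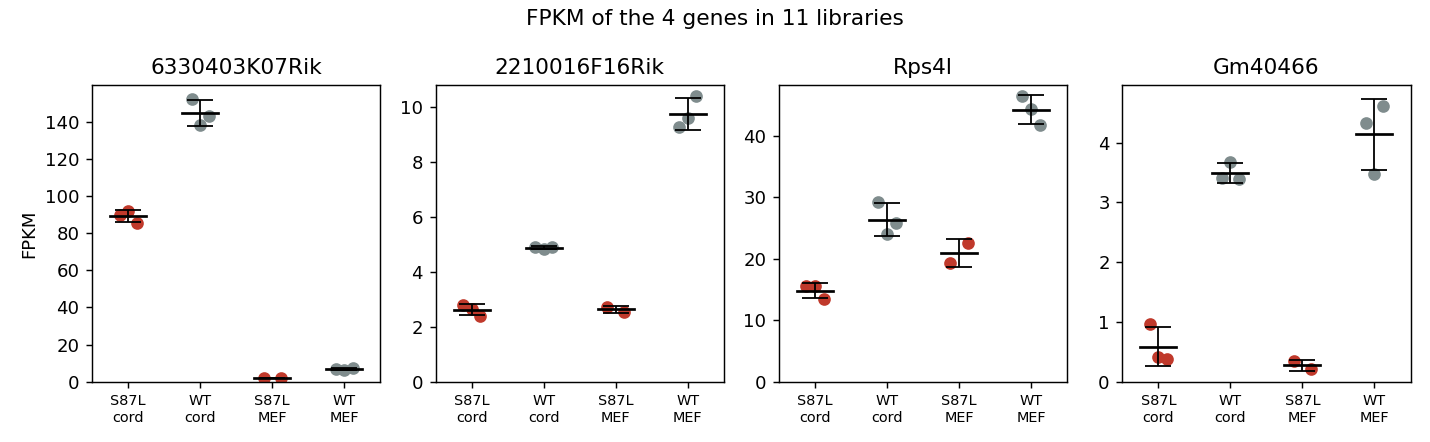
FPKM of 6330403K07Rik, 2210016F16Rik, Rps4l and Gm40466 in S87L and wild-type (WT) spinal cord and MEF libraries; each point is a library, the thick line the group mean and the bar 1 SD. The S87L points lie below the WT points of the same tissue in each panel, and 2210016F16Rik has about the same level in S87L cord (mean 2.62 FPKM) and S87L MEF (mean 2.64 FPKM).

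Against other genes, these differences stood near the end of the range. Of 15648 genes tested in cord, 7.71% were called lower in S87L at a limma adjusted p under 0.05, and of 13773 tested in MEF, 6.32%. Of the 12389 genes tested in both tissues, 103 genes, 0.831%, were called lower in both, and the 4 genes are among these by the choice made. Another 58 genes, 0.468%, were called higher in both. With the 103 ordered by the difference in the tissue where it was smaller, Gm40466 stood at rank 2, Rps4l at 10, 2210016F16Rik at 11 and 6330403K07Rik at 15. The choice of members used these same values, so the ranks only describe it. The median log2 difference over all genes tested was -0.02 in cord and -0.01 in MEF.

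The 10 other genes placed highest in the same order had wild-type cord means of 1.23 to 13.2 FPKM. They were Mir544, Gm22980, Mirlet7a-2, Gm14403, Zfp970, Gm36298, Gm46430, Gm21811, Mir1188 and Rbm12b1, of which 3 are microRNA genes and 1 a small nucleolar RNA gene. Mir544, the first in order, had a mean of 0.822 FPKM in S87L cord against 4.9 FPKM in wild-type cord. It was listed at 0 in both S87L MEF libraries, against a mean of 2.16 FPKM in wild-type MEF. Gm22980 was at 0 in S87L cord and S87L MEF, against wild-type means of 1.23 FPKM in cord and 2.06 FPKM in MEF. The reads behind such low values are not given here, so the places of Mir544 and Gm22980 in the order are uncertain. Gm14403 and the zinc finger gene Zfp970, both on chromosome 2, differed by -1.43 and -1.32 in cord and by -1.55 and -1.19 in MEF. Rps4l, at 14.8 FPKM in S87L cord and 26.3 FPKM in wild-type cord, and 6330403K07Rik had higher wild-type cord means than any of these 10 genes. The calls of Gm22980, Gm46430 and Mir1188 in MEF, and of Mirlet7a-2 in both tissues, were lost when single libraries were left out (3, 3, 4 and 2 of the MEF libraries, and 5 of the cord libraries for Mirlet7a-2).

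**Figure D2:**
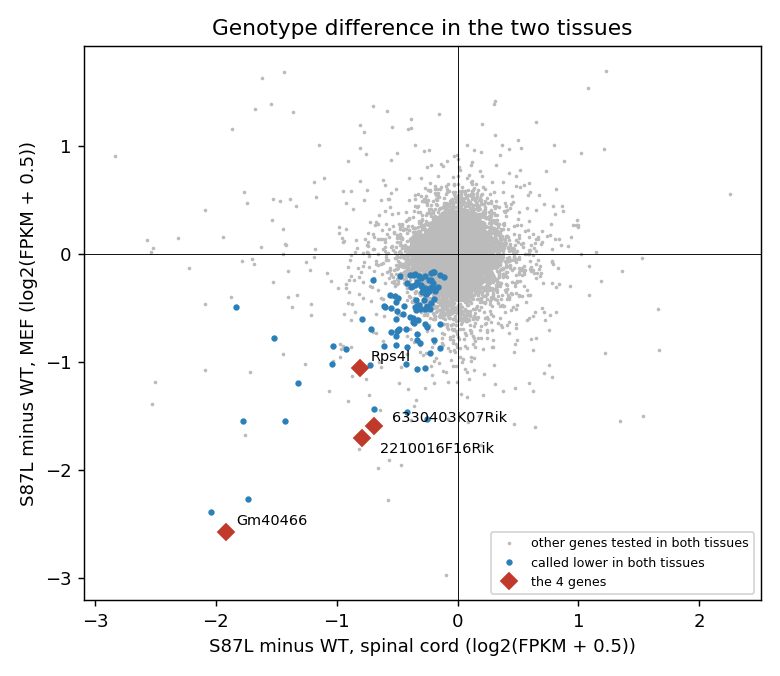
Difference between S87L and WT on the log2(FPKM + 0.5) scale in spinal cord (x axis) and MEF (y axis) for genes tested in both tissues. Blue points are other genes called lower in both, and red diamonds the 4 genes, at -0.69 to -1.92 in cord and -1.06 to -2.58 in MEF, with Gm40466 the lowest of the 4 on both axes.

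Between tissues of wild-type mice, a contrast that the choice of members did not use, 3 of the 4 genes differed. 6330403K07Rik was 21 times as high in spinal cord (145 FPKM) as in MEF (6.89 FPKM), a log2 difference of 4.30 (SE 0.06, limma adjusted p = 3.54e-10). In wild-type cord its mean exceeded that of 98.7% of the tested genes, and in wild-type MEF that of 54.1%. 2210016F16Rik was lower in cord than in MEF by a log2 difference of -0.93 (SE 0.05, limma adjusted p = 7.82e-07), and Rps4l by -0.74 (SE 0.08, limma adjusted p = 3.53e-05). Gm40466 had 3.5 FPKM in cord and 4.14 FPKM in MEF, its groups overlapped, and the log2 difference of -0.21 (SE 0.10) did not pass the test (limma adjusted p = 0.0733). It did pass at -0.49 with quantile normalization (limma adjusted p = 0.00129), at -0.31 with median ratio scaling (0.0173) and at -0.32 without wild-type MEF replicate 2 (0.00322). Those scalings moved the median of all genes by -0.27 and -0.10. Of 15962 genes tested between the tissues, 87.6% were called, so a call here is the usual case and not a property of these genes.

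The order of the 4 groups therefore differed between the genes. For 6330403K07Rik the levels ran from S87L MEF through wild-type MEF and S87L cord up to wild-type cord, with no overlap between neighbours. For Rps4l they ran from S87L cord through S87L MEF and wild-type cord up to wild-type MEF, again with no overlap. For Gm40466 S87L MEF was lowest and S87L cord next, without overlap, and both wild-type groups lay above them and overlapped each other. The lowest S87L cord library held 3 reads of Gm40466 and the highest S87L MEF library 2, so the order of these 2 groups is uncertain. The size of the difference between genotypes was larger in MEF than in cord for each gene, by 0.90, 0.92, 0.26 and 0.66 on the log2 scale for 6330403K07Rik, 2210016F16Rik, Rps4l and Gm40466. These differences come from the values that chose the genes and were not tested.

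No gene tested within 250 kb of 6330403K07Rik or 2210016F16Rik was called lower. Within 1000 kb of 6330403K07Rik, 2 of 31 tested genes were called lower in cord and 1 of 25 in MEF, and within 1000 kb of 2210016F16Rik none of 12 in cord and none of 8 in MEF. Within 250 kb of 6330403K07Rik, 7 genes were tested in each tissue and none was called lower, against 1 in each tissue at an unadjusted p under 0.05. Its nearest tested neighbour, Mis12, which encodes a kinetochore protein and lies 4570 bases away, had 12.6, 13.9 and 13.8 FPKM in S87L cord against 12.9, 10.9 and 12.5 in wild-type cord, a log2 difference of 0.15 that did not pass the test (limma adjusted p = 0.208). Rabep1 rose by 0.17 in cord and 0.18 in MEF (limma adjusted p = 0.0447 and 0.0422), calls that were lost without any library. Around 2210016F16Rik, 7 genes were tested in each tissue and none was called lower, against none in cord and 1 in MEF at an unadjusted p under 0.05. Ubqln1, 164164 bases away, was higher in cord by 0.16 (limma adjusted p = 0.0207), a call lost without any of 4 libraries. Hnrnpk, an RNA-binding protein gene 5917 bases away, had log2 differences of -0.05 in cord and 0.13 in MEF, neither of which passed the test (limma adjusted p = 0.406 and 0.0633). Nor did those of the microRNA gene Mir7-1, -0.36 in cord and -1.41 in MEF (0.333 and 0.42). In MEF Mir7-1 had 4.03 and 0 FPKM in S87L libraries against 4.07, 2.72 and 3.87 FPKM in wild-type libraries, so that difference rests on 1 library.

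Tmtc1, the gene that contains Rps4l on the opposite strand and encodes an endoplasmic reticulum mannosyltransferase, followed it in MEF but not in cord. Tmtc1 had 1.67 and 1.53 FPKM in S87L MEF against 3.13, 3.37 and 3.49 FPKM in wild-type MEF. In cord it had 16, 16.9 and 17.0 FPKM in S87L libraries against 13.9, 15.6 and 15.4 FPKM in wild-type libraries. So Tmtc1 fell by 0.86 on the log2 scale in MEF (SE 0.08, limma adjusted p = 0.00237; 0.0121 to 0.0174 over leaving out each library), while the cord difference of 0.15 did not pass the test (limma adjusted p = 0.119). The difference between the tissues, MEF minus cord, was -1.01 (SE 0.09, limma adjusted p = 6.97e-05 for the interaction), and 12.2% of genes were called for such an interaction. Rps4l, in contrast, was lower in both tissues. No source used here says whether reads were counted by strand. On the opposite strand no annotated transcript, those of Tmtc1 included, held a run of 31 bases of Rps4l. Reads of unspliced Tmtc1 RNA could still not be told apart from those of Rps4l if strand was not used.

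Around Gm40466 the picture was different, and several of the neighbours are its copies. Of 3 genes tested within 250 kb, 2 were called lower in S87L cord and 1 in S87L MEF, and within 1000 kb 5 of 8 in cord and 2 of 8 in MEF. Over all tested genes 7.71% were called lower in cord and 6.32% in MEF. Gm21811, 127766 bases away, had 4.43, 3.79 and 3.86 FPKM in S87L cord against 7.78, 9.01 and 9.47 FPKM in wild-type cord. In MEF it had 3.66 and 3.84 FPKM in S87L libraries against 7.16, 6.47 and 8.08 FPKM in wild-type libraries. It fell by 1.03 in cord and by 0.86 in MEF (limma adjusted p = 0.000779 and 0.00363), and both calls held when each library was left out. Gm21769 fell by 0.94 in cord (limma adjusted p = 0.0051) and had a difference of -0.56 in MEF that did not pass the test (0.195).

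**Figure D3:**
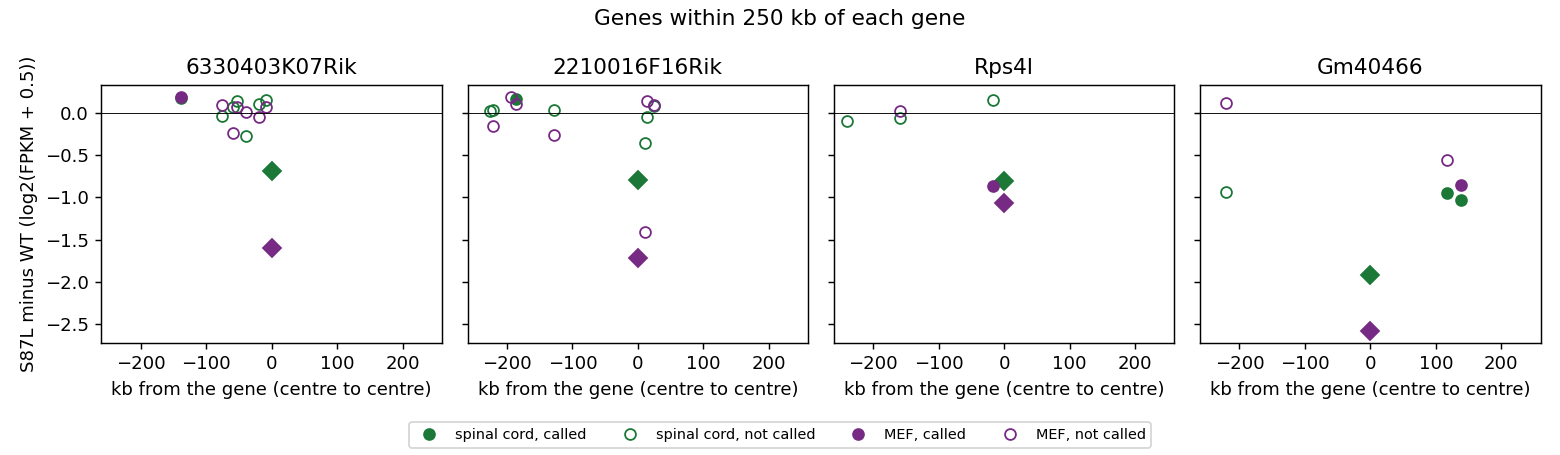
Difference between S87L and WT on the log2(FPKM + 0.5) scale for the genes tested within 250 kb of each of the 4 genes, by distance in kb between gene centres; diamonds are the 4 genes, filled circles are genes called in spinal cord (green) or MEF (purple), and open circles genes not called. Filled circles below 0 appear at Tmtc1 (-0.86 in MEF) near Rps4l and near Gm40466, and at no gene near 6330403K07Rik or 2210016F16Rik.

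Among the 7 genes that share sequence with Gm40466, 5 were called lower in cord and 2 in MEF, and none higher, where 7.71% of all tested genes were called lower in cord and 6.32% in MEF. The median log2 differences were -0.48 and -0.07. This list was drawn up after the sequences were compared. Gm21811, 2610005L07Rik, Gm21092 and 6820431F20Rik also lie within 1000 kb of Gm40466, so these counts are not separate from those of its neighbours. 2610005L07Rik fell by 0.78 in cord (limma adjusted p = 0.00748), a call that held when each library was left out. Gm21092 fell by 0.74 in cord (0.0186, lost without any of 4 libraries) and had 2.43 and 1.82 FPKM in S87L MEF against 1.84, 1.92 and 2.62 FPKM in wild-type MEF, with a difference of 0.00. 6820431F20Rik was lower by -0.48 in cord (0.046) and -0.70 in MEF (0.0171), calls lost without any of 5 cord libraries and without any wild-type MEF library. Cdh11 itself had 6.91, 7.27 and 7.53 FPKM in S87L cord against 8.15, 9.33 and 8.74 in wild-type cord, a fall of 0.25 (limma adjusted p = 0.0342) that was lost without any of 5 libraries and under both other scalings. In MEF, where Cdh11 was abundant, it had 106 and 97.9 FPKM in S87L libraries against 103, 107 and 108 FPKM in wild-type libraries, and the difference of -0.05 did not pass the test (0.522). Shared sequence means that reads of these 7 genes and of Gm40466 may have been split between them in counting, so the level of each copy is uncertain.

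The relatives of Rps4l did not differ in the same way. Rps4x had 159, 164 and 167 FPKM in S87L cord against 162, 153 and 162 FPKM in wild-type cord. In MEF it had 396 and 435 FPKM in S87L libraries against 413, 409 and 404 FPKM in wild-type libraries. Its log2 differences of 0.04 and 0.02 did not pass the test (limma adjusted p = 0.504 and 0.808), nor did those of the processed pseudogene Gm9616, -0.05 and -0.01 (0.707 and 0.934). Rps4l-ps, the closest relative in sequence, was listed at 0 in all 11 libraries, and Gm15013 stayed at or under 0.326 FPKM.

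**Figure D4:**
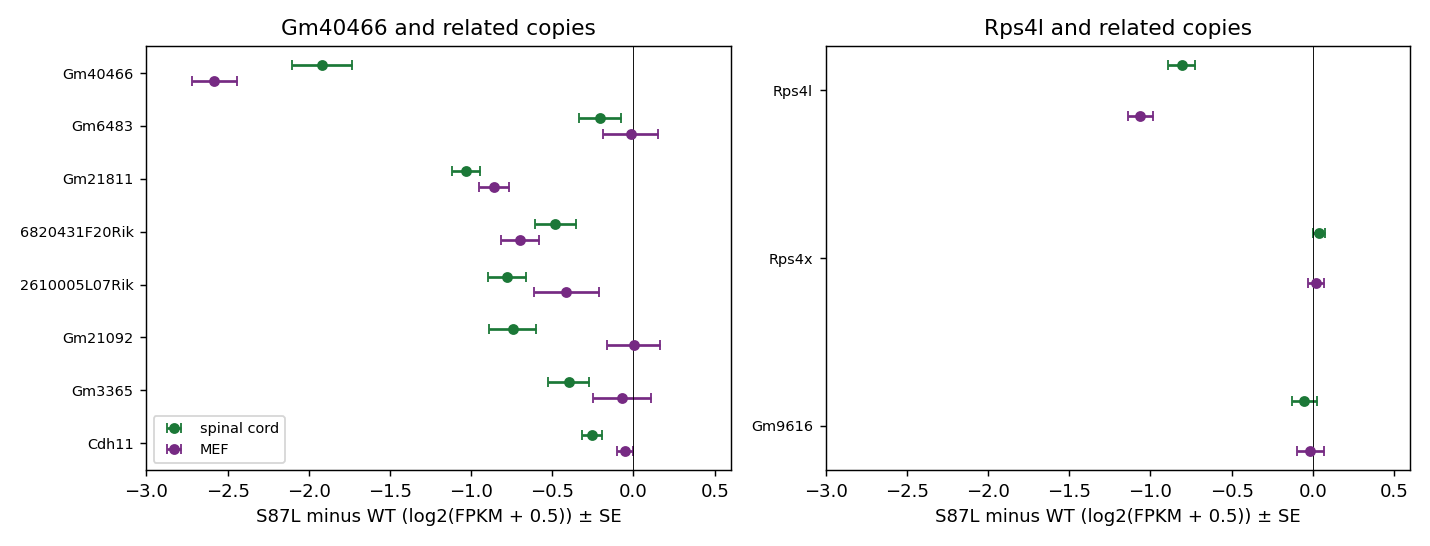
Difference between S87L and WT on the log2(FPKM + 0.5) scale in spinal cord (green) and MEF (purple), with the SE from limma, for Gm40466 and the 7 genes that share runs of 31 bases with it (left) and for Rps4l, Rps4x and Gm9616 (right). The copies of Gm40466 lie between -1.03 and 0.00, nearer to 0 than Gm40466 itself, and the relatives of Rps4l between -0.05 and 0.04.

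Genes of the pathways to which these genes relate were counted from lists chosen with earlier results known. Of 32 other proteins of the small ribosomal subunit, none was called in either tissue by limma, with 3 higher in cord and none in MEF at an unadjusted p under 0.05, and median differences of 0.03 and 0.02. Between wild-type tissues all 32 were lower in cord than in MEF, with a median of -1.02 and a background of 40.3% of genes called lower, and Rps4l, at -0.74, had the same direction. Of 6 tested paralogs of ribosomal proteins in MEF, Rps27l rose by 0.22 and Rpl39l fell by 0.49 (limma adjusted p = 0.0236 and 0.0352, lost without 3 and 4 of the 5 libraries), and of 5 in cord none was called and none reached an unadjusted p under 0.05. Of 5 genes of queuosine modification tested in cord, 2 were called lower, where 7.71% of all tested genes were. These were Qtrt2 and Qtrt1, the 2 subunits of the enzyme that inserts the base, which fell by 0.30 and 0.26 (limma adjusted p = 0.0241 and 0.0317). Each call was lost without any of 5 libraries, with quantile normalization and with no filter. In MEF none of 4 was called, and none reached an unadjusted p under 0.05. The differences of Qtrt2 and Qtrt1 there were 0.11 and 0.06, opposite in sign to those in cord. Of the HUSH complex and its partners, Morc2a was the gene called lower in each tissue, out of 8 tested in cord and 7 in MEF, a share near the 7.71% and 6.32% of all tested genes called lower. At an unadjusted p under 0.05, 2 were lower in cord, and 1 was higher and 1 lower in MEF.

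By class, 3.00% of 800 tested processed pseudogenes were called lower in S87L cord and 1.65% of 911 in S87L MEF, a class that includes Rps4l. For unprocessed pseudogenes, which include Gm40466, the shares were 16.4% of 67 in cord and 6.25% of 48 in MEF. The 3 called lower in MEF were Gm40466 itself and its copies Gm21811 and 6820431F20Rik. The 11 called lower in cord included Gm40466, Gm21811, 6820431F20Rik, 2610005L07Rik and Gm21092. So these shares are not separate from the counts of copies above. For protein-coding genes they were 7.32% and 6.89%.

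Markers of other cells also differed between the genotypes, and their part in the values of the 4 genes was not tested. In cord, where 5.17% of tested genes were called higher in S87L, 16 of 17 tested skeletal muscle genes were higher. The muscle list had a summed level of 231 to 238 FPKM against 149 to 163 FPKM in wild-type libraries. Most of both sums was Pvalb, which was not called (means of 132.5 FPKM in S87L and 131.1 FPKM in wild-type cord). So the sums understate the proportional difference of the other muscle genes. Also higher were 9 of 14 genes of meninges and fibroblasts (456 to 485 against 343 to 368 FPKM), 8 of 14 of microglia and macrophages (471 to 478 against 380 to 402 FPKM) and 3 of 7 of red blood cells (430 to 467 against 357 to 394 FPKM). Of 20 neuronal genes Gad1, Nefm and Syt1 fell, by 0.16, 0.13 and 0.22, calls lost without 5, 6 and 5 of the 6 libraries, and of 10 motor neuron genes none was called, with 2 higher and 1 lower at an unadjusted p under 0.05. In MEF, where 4.91% of tested genes were called higher and 6.32% lower, Acta1 rose and Tnnt3 fell of 5 tested skeletal muscle genes, the Tnnt3 call being lost without any library, and 4 of 13 genes of meninges and fibroblasts were lower (3822 to 4088 in S87L against 4369 to 4407 FPKM in wild-type libraries). No gene of the muscle list was at 0 in all libraries of a tissue. Of genes of astrocytes and oligodendrocytes, 3 were higher and 1 lower of 15 in cord, and 1 lower of 6 in MEF. Of fibroblast identity genes, 4 were higher and 1 lower of 10 in cord, and 5 lower of 12 in MEF. Of proliferation genes, none of 6 was called in cord, also at an unadjusted p under 0.05, and 1 was higher and 1 lower of 18 in MEF. In MEF, Stmn2 and Tubb3 were higher of 6 neuronal genes, calls lost without 3 and 4 of the 5 libraries, 2 of 14 microglia and macrophage genes were lower, and the 3 motor neuron genes and 1 red blood cell gene tested were not called. Xist had 17.5, 17.3 and 18.9 FPKM in S87L cord against 23.6, 28.3 and 26.5 FPKM in wild-type cord (limma adjusted p = 0.00447), and 44.0 and 38.0 FPKM in S87L MEF against 35.4, 35.9 and 35.0 FPKM in wild-type MEF (0.0957). Of the Y chromosome genes listed, Ddx3y stayed at or under 0.0206 FPKM and Uty at or under 0.00547 FPKM in every library. Kdm5d and Eif2s3y were listed at 0 in all 11 libraries. Of 3 tested genes known to differ between C57BL/6 substrains, Wdfy1, Ide and Cyfip2, none was called in either tissue, and none reached an unadjusted p under 0.05. The other genes of that list fell under the filter, among them Nnt, at or under 0.1485 FPKM in every library. So the count does not check the substrain.

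Genes most like each of the 4 were found from the Pearson correlation of log2(FPKM + 0.5) over the 11 libraries, after the mean of each tissue was taken out. Among themselves the 4 genes had correlations of 0.95 to 0.994, the highest between 6330403K07Rik and 2210016F16Rik. Tenm4, a teneurin of the cell surface, and Penk, the precursor of enkephalins, were among the 5 genes most like both of these, at 0.992 and 0.991 for 6330403K07Rik and at 0.990 and 0.985 for 2210016F16Rik. Penk differed by -0.33 in cord and -1.07 in MEF, and Tenm4 by -0.23 and -0.52. For Rps4l the nearest were Ndn, an imprinted gene that encodes necdin, at 0.997, and Rtl8b at 0.989, with differences of -0.51 and -0.50 in cord and -0.61 and -0.53 in MEF. For Gm40466 the nearest was Dnmt3a, a DNA methyltransferase, at 0.991, with -0.25 in cord and -0.37 in MEF. The other genes among the 5 nearest were Pyurf, Epb41l4b and Tgfa for 6330403K07Rik, Tgfa, Dclk2 and Cacna1g for 2210016F16Rik, Pqbp1, Cercam and Igsf3 for Rps4l, and Adcy3, Appl2, Bace1 and Copg1 for Gm40466. These points share the same libraries and genotype groups, and the correlations are a description only. Only the tissue means were taken out, so the genotype differences that chose the 4 genes remain in these correlations.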

How the data were processed

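Total RNA of spinal cord and MEF was sequenced from libraries made with a directional kit, per the labels' protocols. The values used are the FPKM that the authors deposited for 11 libraries and 55487 Ensembl genes. The submitters' processing notes name HTSeq 0.11.3, HISAT2 2.2.1, Trimmomatic 0.39, Picard 2.25.5 and the build GRCm38. Not given in the sources used here are the annotation release, the strand setting and the treatment of reads that match several genes. Library titles gave group and replicate number.

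Symbols, coordinates and transcripts came from GENCODE M21 (GRCm38), in which 260 identifiers were not found. Dividing each FPKM value by the worth of 1 read gave whole reads, within 0.05, for 98.5% to 98.6% of values per library. No count model was run, because the divisors depend on exon lengths from an annotation that may not be the authors'. Genes averaging at least 0.5 FPKM in a comparison's libraries entered a fit of log2(FPKM + 0.5) for that comparison with limma 3.58.1 (R 4.3.3), with its trend and robust options. A gene was called where the p-value, adjusted by Benjamini-Hochberg across the genes of the fit, was under 0.05. Differences between tissues in the genotype effect came from the interaction term of a fit of all 11 libraries, added after the data were seen. The fits were tested on simulated data. Exact 95% intervals of pooled reads are conditional binomial (Clopper-Pearson).

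The members and gene lists were chosen with earlier results of these data known. The genes named were the 4 members, Morc2a, Rps4x, genes that overlap a member, called genes within 250 kb (at most 3 per member and tissue), at most 4 called genes per list by smallest p, the 5 genes most like each member, and the 10 others with the largest falls in both tissues. The copies of Gm40466 and Rps4l, and nearby genes that were not called, were named after their values were seen. Lists covered small-subunit ribosomal proteins, ribosomal protein paralogs, queuosine modification, HUSH, C57BL/6 substrain and sex-linked genes, skeletal muscle, meninges and fibroblasts, neurons, motor neurons, astrocytes and oligodendrocytes, microglia and macrophages, red blood cells, proliferation and fibroblast identity. Alternatives were other pseudocounts, filters, scalings and windows, 1 fit of all libraries, a replicate block, limma without the robust setting and leaving out each library.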

Additional observations from a re-analysis of the deposited data

Results flagged for a closer look

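Of 21 genes tested within 250 kb of the 4 genes, 3 had a genotype effect that differed between the tissues in the limma interaction test of all 11 libraries. That is 14.3%, near the 12.2% of all 17032 genes called in this test. For Tmtc1, which contains Rps4l, the effect in MEF minus that in spinal cord was -1.01 on the log2 scale (adjusted p = 6.97e-05). For Gkap1, 104118 bases from 2210016F16Rik, it was -0.29 (adjusted p = 0.0324), and for Hnrnpk, 5917 bases from the same gene, it was 0.18 (adjusted p = 0.0335). Gkap1 had 3.19 and 2.97 FPKM in S87L MEF against 4, 3.69 and 3.71 FPKM in wild-type MEF, and 5.99, 6.51 and 6.09 FPKM in S87L cord against 5.86, 6.24 and 6.08 FPKM in wild-type cord. Hnrnpk had 95.7 and 93.0 FPKM in S87L MEF against 86.9, 85.2 and 85.7 FPKM in wild-type MEF. Neither Gkap1 nor Hnrnpk was called in either tissue on its own. Groups of 2 or 3 libraries were not searched for single libraries that stand apart.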

How the results depend on the processing

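The 4 genes kept the direction of their differences between S87L and wild-type libraries under every alternative run. Their sizes moved with the pseudocount: with 0.1 and with 1 in place of 0.5, 6330403K07Rik differed by -1.77 and -1.42 in MEF, 2210016F16Rik by -0.88 and -0.70 in cord and by -1.85 and -1.57 in MEF, and Gm40466 by -2.48 and -1.52 in cord and by -3.51 and -2.01 in MEF. Between wild-type tissues, Gm40466 passed the test at -0.49 with quantile normalization, at -0.31 with median ratio scaling and at -0.32 without wild-type MEF replicate 2, with -0.32 to -0.14 over leaving out each library. The count of genes called in cord, 2016, was 838 to 1637 when a library was left out, and the 1547 called in MEF were 565 to 1753 when a library was left out and 788 with no filter. In cord 809 genes were higher and 1207 lower. Quantile normalization gave 839 higher and 892 lower, and median ratio scaling 1232 higher and 876 lower. Replicate numbers were not shown to pair the libraries: deviations of same-numbered libraries correlated at 0.228, -0.206 and 0.301 in cord and at -0.160 and -0.145 in MEF. With a replicate block 1663 genes were called in cord and 182 in MEF. The cause of these shifts was not tested. Depth limits Gm40466 most, at 1 to 8 reads per S87L library.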
